A study of Mus musculus with 2 samples.

Results

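Small nucleolar RNAs (snoRNAs) and the genes that carry them were followed in mouse small intestinal myofibroblasts cultured with or without material of eosinophils. Members were the genes whose symbol begins with Snord (box C/D snoRNAs), Snora (box H/ACA snoRNAs) or Snhg and a number (snoRNA host genes), with Gas5 added by name. A gene was taken where a probeset of the array was paired with it alone, and where a gene had several, the one with the highest average of the 2 values was used. This gave 88 members among 22180 genes: 47 box C/D snoRNAs, 26 box H/ACA snoRNAs and 15 host genes. Gas5, the host of Snord47, had only a probeset shared with Mir5117 and is therefore described beside the members. One array held RNA of subepithelial myofibroblasts from the small bowel of wild-type BALB/c mice, cultured alone, and the other held RNA of the same kind of culture kept for 1 day with intestinal eosinophil homogenate at 5 mg/ml. Each condition pooled the RNA of 3 cultures onto 1 array. There is thus no replicate, no test and no error for any difference below, and p-values cannot be given.

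SnoRNAs are short stable RNAs of the nucleolus that guide chemical marks onto ribosomal RNA. Box C/D snoRNAs direct the methylation of riboses through the enzyme fibrillarin, and box H/ACA snoRNAs direct the change of uridine to pseudouridine through dyskerin. A few of both kinds are needed to cut the ribosomal RNA precursor rather than to mark it. In mammals most snoRNAs are not transcribed alone: they lie in introns of ribosomal protein genes, translation factor genes or non-coding hosts, and are trimmed out of the spliced intron while the joined exons go their own way. A snoRNA and its host therefore start from 1 transcript but are separate stable products.

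The arrays gave log2 values for 41345 probesets, the lowest being 1.08 without homogenate and 1.11 with it, and the highest 13.79 on each. Background was set by 1405 probesets for receptors of smell and pheromones, and to be above it a gene had to pass their 95th percentile, 5.58 without and 5.57 with homogenate, on 1 array or both. All 14 fibroblast identity genes were above it, with Vim at 13.10 and 13.16, whereas the eosinophil granule genes Epx and Prg2 were under it on both arrays, although 1 label field names eosinophils as the source of both samples. Of 9 eosinophil markers measured, 2 were above background, as were 5 of 12 pan-leukocyte markers. All 5 of these leukocyte markers read lower with homogenate, where 48.2% of all genes above background did. Their differences lay between -0.24 (Rac2, 5.94 and 5.70) and -0.01 (Fcer1g). Above background were also 6 of 16 epithelial markers, 3 higher and 3 lower, and 6 of 7 neuron markers, 2 higher and 4 lower. In RNA of whole cultures, fewer cells of a type and less RNA per cell cannot be told apart.

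Nearly all members were above background: 46 of 47 box C/D snoRNAs, 26 of 26 box H/ACA snoRNAs and 14 of 15 host genes, against 14065 of the 22180 genes. The exceptions were Snord85, at 4.92 without homogenate and 4.71 with it, and the host Snhg9, at 4.76 and 4.63. In all, 83 members were above background on both arrays.

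Box C/D snoRNAs read lower with homogenate almost throughout, each by a small amount. Of the 46, 40 were lower on the stimulated array and 6 higher, where 48.2% of all genes above background were lower and 50.2% higher. Their median log2 difference (stimulated minus non-stimulated) was -0.22, with the middle 50% between -0.32 and -0.12, against 0.00 over all genes. A decrease of 0.2 or more was measured in 26 of them (56.5%), against 11.4% of all genes, and an increase of that size in 1, against 10.1% of all genes. None differed 2-fold, as 0.0427% of all genes did downwards and 0.192% upwards. A decrease of 0.5 or more was seen in 1 of the 46, against 1.15% of all genes, and an increase of 0.5 in none, against 1.2%.

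**Figure D1:**
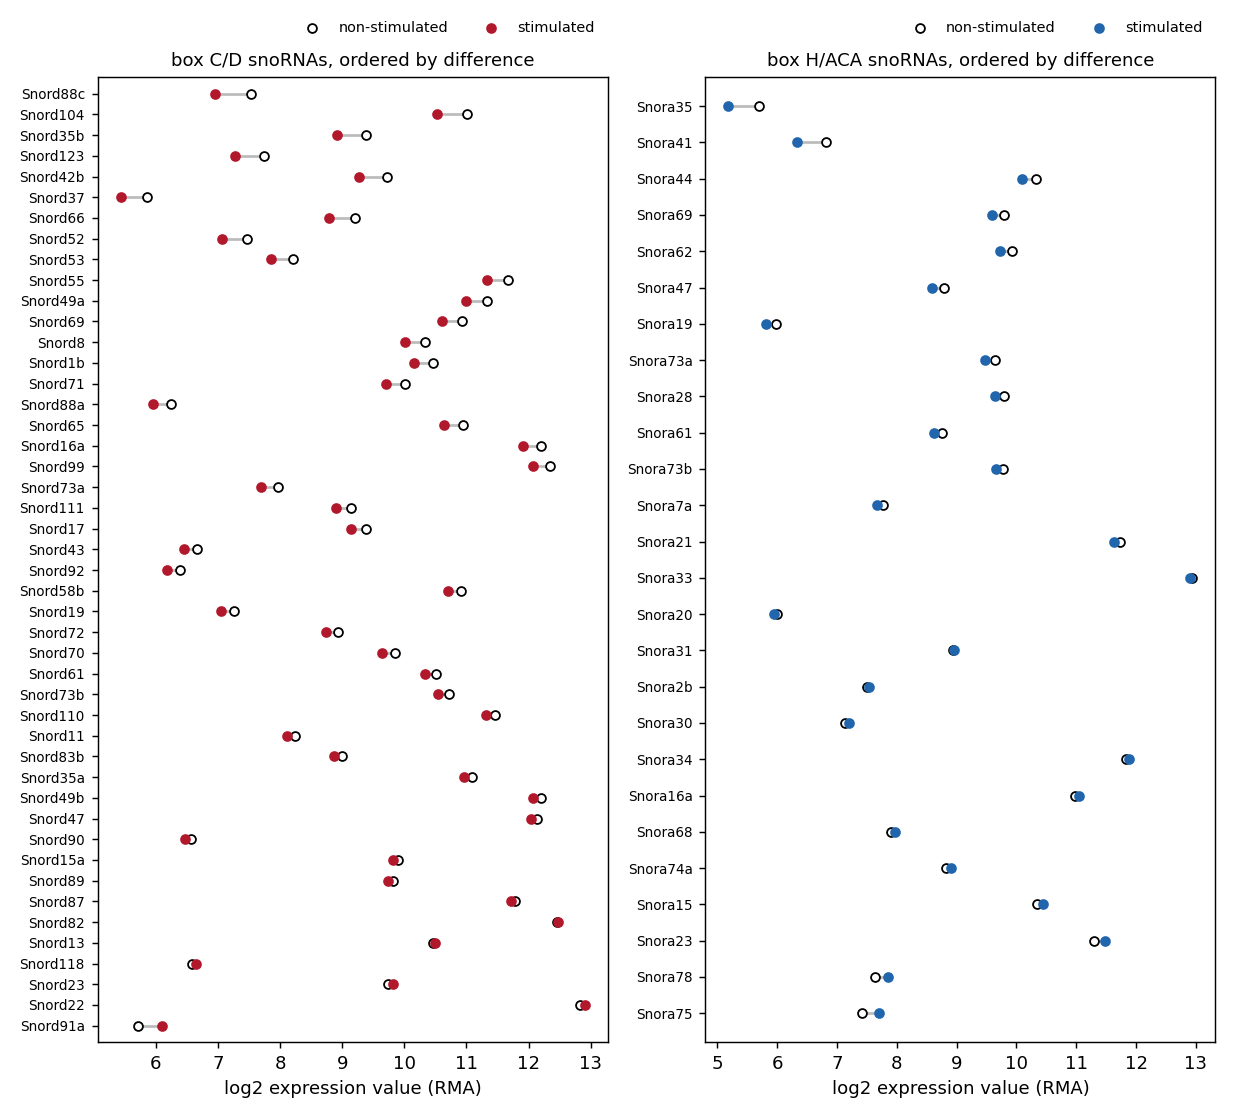
Log2 expression values of the 46 box C/D snoRNAs (left) and the 26 box H/ACA snoRNAs (right) above background, with the non-stimulated array as open circles and the stimulated array as filled circles, ordered by difference. In 40 of 46 rows on the left the filled circle lies left of the open one, against 15 of 26 on the right.

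Snord88c had the most negative difference, at 7.54 without and 6.95 with homogenate, a difference of -0.59. Its neighbour Snord88a, in an intron of the same gene 2410002F23Rik, read 6.25 and 5.95. The host itself read 7.63 and 7.65, so that both snoRNAs were lower where the probeset of the host was not.

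Snord104 followed at 11.00 and 10.53, or 1.39-fold lower. Snord35b read 9.38 and 8.91, and Snord123, carried by Snhg18, read 7.73 and 7.27, both 1.38-fold lower. These members cover a wide span of the array's scale, from values near 7 to values near 11.

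Snord42b, from the ribosomal protein gene Rpl23a, read 9.72 and 9.28. Snord66, from the translation initiation gene Eif4g1, read 9.20 and 8.78, and Snord52 read 7.46 and 7.06. Snord37, from the elongation factor gene Eef2, was at 5.86 without homogenate and under background with it, at 5.44, so it was at least 1.23-fold lower. As Snord37 is known only by this bound, its place among the others is not known.

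The other 32 lower box C/D snoRNAs had differences between -0.36 (Snord53, 8.21 and 7.85) and -0.06 (Snord87, 11.78 and 11.72). Snord16a, from Rpl4, read 12.20 and 11.92, and Snord99, from Snhg12, read 12.35 and 12.07. Snord49b read 12.20 and 12.08, and Snord47, the product of Gas5, read 12.13 and 12.03. Decreases were thus found in bright and in dim probesets. In the brightest of 4 equal sets of genes by mean value, 28 of 32 box C/D snoRNAs were lower (87.5%) and 16 by 0.2 or more, against 42.6% and 4.32% of all 3516 genes in that set.

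Of the 6 box C/D snoRNAs that were higher with homogenate, 3 stand on the list used here for cutting of the ribosomal RNA precursor. Snord13 is on that list although it guides a mark. Snord22, from Snhg1, is needed for the small-subunit RNA to mature and read 12.82 and 12.90. Snord13, which has its own promoter and guides acetylation of the small-subunit RNA, read 10.45 and 10.50. Snord118, also transcribed on its own and needed for the large-subunit RNAs, read 6.59 and 6.65. Their differences were 0.08, 0.04 and 0.06.

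The other 3 were Snord91a, Snord23 and Snord82. Snord91a was the 1 box C/D snoRNA with an increase above 0.2, from 5.72 to 6.10, close to background on both arrays. Snord23, from the ribosome assembly gene Nop53, read 9.74 and 9.81, and Snord82, from the nucleolin gene Ncl, read 12.46 and 12.47. Snora73a and Snora73b, box H/ACA RNAs that act in precursor cutting, were lower, from 9.64 to 9.47 and from 9.77 to 9.66. The list of snoRNAs of precursor cutting had 5 members measured, 3 higher and 2 lower, with a median of 0.04. Rnu3a, the box C/D RNA that starts this cutting but bears another symbol, read 8.63 and 8.57.

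Box H/ACA snoRNAs were split in direction. Of 26, 15 were lower and 11 higher, with a median of -0.07 and the middle 50% between -0.18 and 0.06. A decrease of 0.2 or more was measured in 5 (19.2%) and an increase of 0.2 or more in 2 (7.69%), set against 11.4% and 10.1% of all genes. With values under background raised to it, the 5 became 4 (15.4%), as Snora35 then fell short, against 9.93% of all genes. With 1 array per condition the gap between their median and that of the box C/D snoRNAs has no test.

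**Figure D2:**
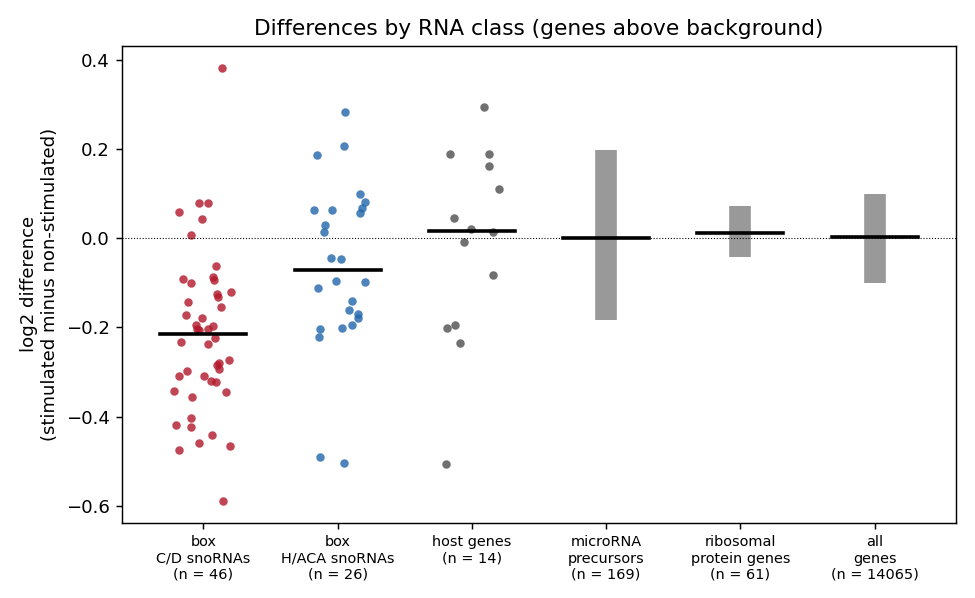
Log2 differences (stimulated minus non-stimulated) of genes above background. Points are single members, black lines are medians and grey bars span the middle 50% of the genes of a comparison class. The box C/D points lie mostly below 0, around -0.22, and the medians of host genes, microRNA precursors, ribosomal protein genes and all genes lie within 0.02 of 0.

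At the low end, Snora35 read 5.69 without homogenate and 5.19 with it, under background, which leaves at least 1.09-fold lower. It lies in an intron of the serotonin receptor gene Htr2c, which was itself not above background. Snora41, from the elongation factor gene Eef1b2, read 6.82 and 6.33, or 1.41-fold lower. The next members were Snora44 (10.32 and 10.10), Snora69 (9.79 and 9.59), Snora62 (9.93 and 9.73) and Snora47 (8.79 and 8.59). Snora21 and Snora33 were among the brightest, and Snora21 read 11.73 and 11.63. The next most negative were Snora19, whose 2 probesets hold the same values (5.99 and 5.81), and Snora73a.

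At the high end stood Snora75, from Ncl, at 7.43 and 7.71, or 1.22-fold higher. Snora78, which lies within Snhg9, read 7.64 and 7.85, while Snhg9 was under background on both arrays. Snora23, from the nuclear import gene Ipo7, read 11.30 and 11.48, and Snora15, from the chaperonin gene Cct6a, read 10.34 and 10.44. Snora74a, Snora68, Snora16a and Snora34 were higher by 0.08, 0.07, 0.06 and 0.06. Snora33 was at 12.94 and 12.90 in its brighter probeset and at 7.40 and 7.41 in the other, so that its 2 probesets differ in sign.

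The non-coding host genes were split in direction as well. Of 14 above background, 6 were lower and 8 higher, with a median of 0.02 between -0.51 and 0.29. A decrease of 0.2 or more was measured in 3 (21.4%) and an increase of that size in 1 (7.14%), where 11.4% and 10.1% of all genes had one. The 3 became 2 (14.3%) with values under background raised to it, as Snhg14 then fell short, and also 2 with the mean of a gene's probesets, which put Snhg11 at -0.055. These hosts make spliced transcripts that are mostly decayed in the cytoplasm and have little protein-coding content.

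Snhg7 was the most different host upwards, at 7.09 and 7.38 in the probeset paired with it alone. Probesets that it shares with Snora17 were higher too, at 8.54 and 8.68 and at 8.27 and 8.43. That shared with Snora43 was lower, at 7.72 and 7.49. Snhg1 read 8.37 and 8.56, Snhg20 read 7.21 and 7.40, and Snhg10 read 6.77 and 6.93. Snhg6 followed at 8.93 and 9.04. Others lay within 0.1 of 0: Snhg15 (0.05), Snhg4 (0.02), Snhg18 (0.01), Snhg12 (-0.01) and Snhg5 (-0.08).

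Downwards, Snhg3, the host of Snora73a and Snora73b, read 8.08 and 7.85. Snhg17 read 8.44 and 8.24 in its brightest probeset, but its other 2 probesets were higher by 0.08 and 0.18. Snhg11 read 6.33 and 5.82 in 1 probeset and 5.83 and 6.23 in the other, which is a difference of -0.51 against 0.40. Neither host thus has a direction that its probesets share. Snhg14, the long imprinted host of brain snoRNAs, was at 5.69 without homogenate and under background with it, at 5.48. The probeset shared by Gas5 and Mir5117 read 7.87 and 8.02.

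Many snoRNA hosts are known to start transcription at a run of pyrimidines, a feature shared with ribosomal protein genes whose translation follows growth signals. The start regions below are from the RefSeq promoters of the hosts named Snhg or Gas5 that carry a snoRNA measured here. They show runs at or near the annotated start, which need not span it. Snhg4 and Snhg6 and the non-coding hosts with other names, such as 2410006H16Rik, are not shown. Each line gives 45 bases before and 20 bases from the annotated start, 5′ to 3′ on the gene's strand, GRCm38.p6. Capitals mark the longest run of C and T in the window from 5 bases before the start to 15 bases after it, where it reaches 6 letters, and TATAA, on either strand (TTATA on the reverse), from 40 to 20 bases before the start.
Snhg12: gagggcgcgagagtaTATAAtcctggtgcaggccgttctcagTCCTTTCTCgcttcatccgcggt
Snhg1: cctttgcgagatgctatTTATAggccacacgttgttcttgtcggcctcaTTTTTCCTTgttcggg
Gas5, downstream start: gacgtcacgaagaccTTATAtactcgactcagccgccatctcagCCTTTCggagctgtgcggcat
Snhg16: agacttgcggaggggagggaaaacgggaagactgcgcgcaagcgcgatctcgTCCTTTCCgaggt
Snhg18: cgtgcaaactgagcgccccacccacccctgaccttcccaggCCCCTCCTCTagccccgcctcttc
Snhg3: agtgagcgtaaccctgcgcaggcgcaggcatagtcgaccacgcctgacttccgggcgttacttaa
Snhg9: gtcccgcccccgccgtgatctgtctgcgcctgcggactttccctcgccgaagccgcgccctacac

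These windows lie at chr4:132308633-132308697 (plus strand) for Snhg12, chr19:8723442-8723506 (plus) for Snhg1, chr1:161035121-161035185 (plus) for Gas5, chr11:116671615-116671679 (plus) for Snhg16, chr15:32244643-32244707 (minus) for Snhg18, chr4:132353667-132353731 (minus) for Snhg3 and chr17:24719946-24720010 (minus) for Snhg9. The second, upstream start of Gas5 holds neither feature and is not shown. In Snhg9 a longer run of 9 pyrimidines ends at the last base before the start, but the window cuts it to 5, so that it is neither marked nor counted. A pyrimidine run of 6 or more was found at 5 of these 8 starts, but over all Snhg genes and Gas5 in the table at 9 of 21 starts (42.9%). This was close to the 31 of 76 starts of ribosomal protein genes (40.8%), against 17.6% of all 32851 promoters in the table. These counts take a run anywhere in the window. In Snhg1 and Snhg16 it begins only at bases 5 and 8 of the annotated transcript, so the annotated start lies outside it. TATAA on either strand was found at 3 of the 8 starts, Snhg12, Snhg1 and the downstream start of Gas5, and at 5 of the 21 (23.8%), against 4.01% of all promoters. Snhg3, without either in its window, differed by -0.24, and Snhg12 and Snhg1, with both, differed by -0.01 and 0.19. A match describes letters only and shows no use of the site.

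Set beside their own hosts, box C/D snoRNAs were lower in 31 of 32 cases. Of the 46, 40 lie within 1 protein-coding or non-coding host of the RefSeq table, and the host had a value above background for 32, in 24 hosts. The median difference of these snoRNAs was -0.22 and that of their hosts 0.02, and the snoRNA minus its host had a median of -0.26. The 1 exception was Snord72, at -0.20 in a host, Rpl37, that was at -0.33. The probeset of Rpl37 was dim for its kind, at 6.88 and 6.56, where ribosomal protein genes above background had medians of 10.28 and 10.48. Snord23 was level with its host Nop53 to within 0.01. Across these 32 pairs Pearson's r was 0.27 and Spearman's rho 0.23, given as a description, since pairs share arrays and in part hosts.

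**Figure D3:**
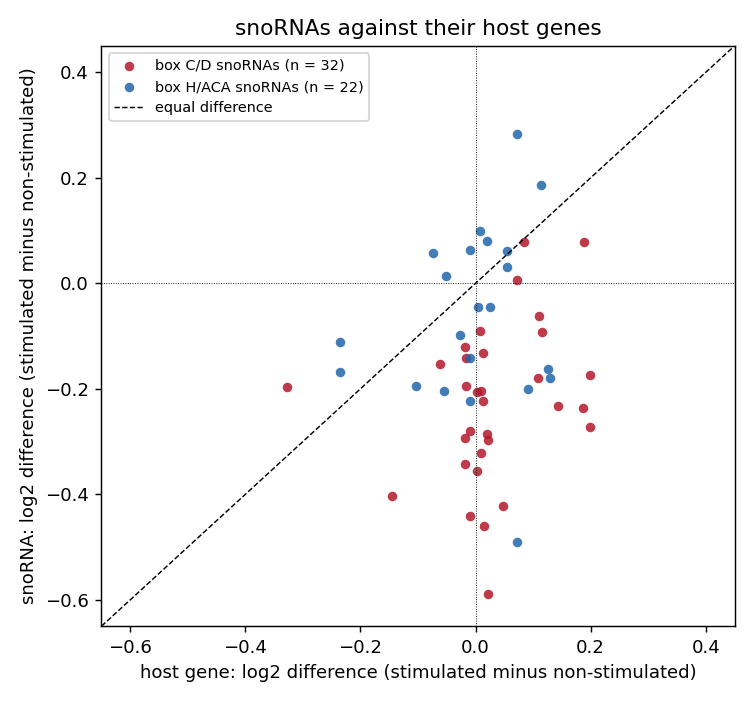
Log2 difference of each snoRNA (vertical) against that of its host gene (horizontal), with 32 box C/D pairs in red and 22 box H/ACA pairs in blue; the dashed line marks equal differences. In red, 31 of 32 points lie below the line, and in blue 12 of 22.

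Box H/ACA snoRNAs were below their host in 12 of 22 cases and above it in 10, with a median gap of -0.04. Protein-coding hosts held 24 of the 32 box C/D pairs, and non-coding hosts the other 8. The widest gaps after Snord88c were those of Snord123 in Snhg18 (-0.47), Snord73a in the ribosomal protein gene Rps3a1 (-0.47) and Snord42b in Rpl23a (-0.43), leaving aside Snord37, which was under background on 1 array. Snora41 in Eef1b2, at -0.56, had the widest gap among box H/ACA snoRNAs.

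Hosts with several snoRNAs allow products of 1 transcript to be compared. Snhg12 carries 4 members above background and read 7.85 and 7.84. Its box C/D product Snord99 differed by -0.28 and its box H/ACA products Snora44 and Snora61 by -0.22 and -0.14, while Snora16a was higher, from 10.98 to 11.04. Products of 1 host thus differed in sign.

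The non-coding gene 2410006H16Rik, which carries Snord49a, Snord49b and Snord65, read 10.32 and 10.30. Its snoRNAs read 11.33 and 10.99, 12.20 and 12.08, and 10.94 and 10.65, all 3 lower. The nucleostemin gene Gnl3 (9.81 and 9.82) holds Snord69, at a difference of -0.32, and Snord19, at -0.20. Wdr43, a ribosome assembly gene, read 9.49 and 9.49, and its Snord53 and Snord92 differed by -0.36 and -0.21.

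In Rps3a1 (10.28 and 10.48) the host was higher by 0.20 while Snord73a and Snord73b differed by -0.27 and -0.17. Snord11 and Snord70 of Nop58 differed by -0.14 and -0.19 beside a host at -0.02, and Snord43 and Snord83b of Rpl3 by -0.22 and -0.13 beside a host at 0.01. In Ncl neither product was lower, as Snord82 read 0.01 and Snora75 0.28 beside 0.07 for the host. The pair of box H/ACA snoRNAs of Kansl2, Snora2b and Snora34, was higher by 0.03 and 0.06 beside 0.05 for the host. Snora73a and Snora73b, at -0.17 and -0.11, were both above their host Snhg3, at -0.24.

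Counted once per locus, with the median of the box C/D snoRNAs of each host, 32 of 38 loci were lower, with a median of -0.23. For box H/ACA snoRNAs 13 of 22 loci were lower.

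The length of the RefSeq entry goes with the class. For the 46 box C/D snoRNAs the median is 68 bases (48 to 221) and for the 26 box H/ACA snoRNAs 118.5 (56 to 205). Among the latter, the entries of Snora19, Snora20 and Snora61 have only 56, 61 and 62 bases. Whether each entry spans the whole RNA was not checked, and lengths below are those of entries. Among box C/D snoRNAs under 110 bases 38 of 42 were lower, with a median of -0.23, and among those of 110 or more 2 of 4 were, with a median of -0.02. Among box H/ACA snoRNAs 4 of 6 shorter and 11 of 20 longer ones were lower, with medians of -0.05 and -0.10. Over all 72 snoRNAs Pearson's r between length and difference was 0.35 and Spearman's rho 0.41. Within the classes both were smaller, with r 0.20 and rho 0.24 for box C/D and r 0.16 and rho 0.05 for box H/ACA. These describe RNAs read on the same arrays and partly from the same hosts.

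**Figure D4:**
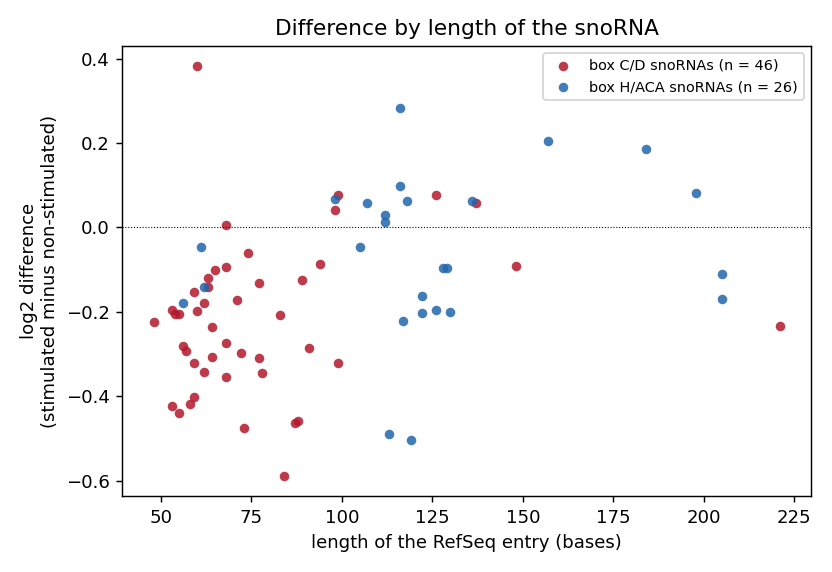
Log2 difference (stimulated minus non-stimulated) against the length of the RefSeq entry in bases, for 46 box C/D snoRNAs (red) and 26 box H/ACA snoRNAs (blue). Most box C/D snoRNAs lie under 110 bases and below 0, while both classes lie on either side of 0 at greater lengths.

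Among other short RNAs on the arrays, microRNA precursors were evenly split, while most of the few RNAs in the smaller classes read lower. The difference between classes was not tested. The 169 microRNA precursors above background, with RefSeq entries of 59 to 134 bases and a median of 87, had a median difference of 0.00, with 83 higher and 83 lower. Their middle 50% reached from -0.18 to 0.20. Of these precursors 22.5% were lower by 0.2 or more and 24.9% higher by as much, against 11.4% and 10.1% of all genes. Of 4 small Cajal body RNAs, which guide marks on spliceosomal RNA, 3 were lower (75%), with a median of -0.05. Of 9 other short nuclear or cytoplasmic RNAs 7 were lower (77.8%), with a median of -0.06, where 48.2% of all genes above background were lower. The largest decreases were those of the spliceosomal Rnu11 (10.34 and 9.79) and the vault RNA Vaultrc5 (6.72 and 6.39), while Rn7sk read 13.53 on both arrays. The part of RNA length in the box C/D difference was not tested.

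Genes of the snoRNA protein machinery (core, assembly and end trimming) had list medians between -0.02 and 0.07. Of the box C/D core, Nop56 read 9.27 and 9.21, Nop58 9.99 and 9.98, and the RNA-binding Snu13 9.71 and 9.74. Fbl, which encodes fibrillarin, is also on this list but had no value here. Of the box H/ACA core, Dkc1, which encodes dyskerin, read 8.12 and 8.10, Nhp2 8.11 and 8.07 and Nop10 10.04 and 10.08. Gar1 differed more, at 7.37 and 7.71, or 1.27-fold higher. Of 13 assembly and trafficking genes above background 8 were higher and 5 lower (median 0.07), from Znhit3 (-0.30) and Snupn (-0.15) to Ruvbl1 and Nolc1 (both 0.19). Of 17 genes of snoRNA end trimming and RNA turnover 6 were higher and 10 lower (median -0.01), between Parn and Dis3 (both -0.13) and Exosc8 (0.17) and Exosc7 (0.20). The 9 nonsense-mediated decay genes, which clear spliced host transcripts, had 3 higher and 6 lower and a median of -0.06, from Smg9 (-0.17) and Smg8 (-0.13) to Upf2 (0.13) and Eif4a3 (0.29). A list of 6 further non-coding RNA genes, not all of them snoRNA hosts and none assigned to a member here, had a median of 0.08. Of these 4 were higher and 2 lower, from Zfas1 (-0.21) and Epb41l4aos (-0.01) to Dancr (0.15) and Meg3 (5.67 and 5.88). Outside this list, the non-coding hosts 1110038B12Rik and 2410006H16Rik, which carry members, differed by -0.14 and -0.02. Ribosomal protein genes, many of them hosts, had 35 of 61 higher and a median of 0.01.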

How the data were processed

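The authors' deposited values are log2 expression values, 1 per probeset and array, from the GeneChip Mouse Gene 2.0 ST array. They came from RMA and Affymetrix Expression Console, per the submitters' processing notes. Versions and genome build: not given in the sources used here. The sorted values of both arrays differ by at most 0.0757, so a gene's difference is read against the whole array. Per the labels' protocols, RNA was cleaned up on spin columns before labelling, and how much short RNA each pool kept was not measured.

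Probesets paired with 1 gene (23521) were used, named through RefSeq (GRCm38.p6, all 88 members matched). A host is the gene whose RefSeq span contains the snoRNA; the table gives no strand, so strand was not compared. Where 2 genes contained it, an Snhg gene or Gas5 was taken, or none. Differences are stimulated minus non-stimulated. Named are hosts above background, the 8 largest differences each way and the 4 brightest of each snoRNA class, the precursor-cutting and core genes, snoRNAs of hosts with 3 or more, and the 2 largest differences each way of other lists. Other snoRNAs and hosts, such as those with 2 snoRNAs, were chosen after their values were seen. Members and lists were chosen with earlier results of these data known, and the 0.2 threshold and the length split after values were seen. The script was tested on simulated data (pandas 2.3.3, statsmodels 0.14.6). Alternatives covered the background filter, probeset choice, centring, symbols, thresholds, brightness and 1 value per host.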

Additional observations from a re-analysis of the deposited data

How the results depend on the processing

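Over 14 alternative settings the median of the box C/D snoRNAs lay between -0.23 and -0.18, that of the box H/ACA snoRNAs between -0.10 and -0.05 and that of the host genes between -0.01 and 0.11. With probesets shared between genes added, 50 of 63 box C/D entries were lower. A shared probeset enters here once per symbol, so these entries are not all separate measurements. Snord116l1 and Snord116l2 hold the same values, and Snord1a holds those of a probeset shared with Snhg16. With a cut at 1.5-fold, 1 member, Snord88c, counted as lower, only just past the cut at 1.504-fold. The share of all genes past this cut is not given here. At the nearby cut of 0.5 on the log2 scale, 1.15% of all genes above background were lower. With the mean of a gene's probesets, the box C/D core protein genes had a median of -0.075. In the brightest of 4 equal sets, chosen after values were seen, 16 box H/ACA snoRNAs and 1 host gene were left, 0 hosts were lower, all 16 of 16 box C/D snoRNAs were below their host, and microRNA precursors had a median of 0.057; this setting holds fewer genes by construction. Of 792 member values under other settings 6 moved by 0.1 or more and 3 changed sign. Most of these values could not move. Changing the filter or the symbols, or adding shared probesets, leaves a member's difference as it is. The mean of a gene's probesets can alter only members with several. These counts are therefore no measure of stability. With the mean of a gene's probesets Snhg17 turned from -0.20 to 0.020 and Snhg11 went from -0.51 to -0.055. With differences centred on a lowess trend Snora31 and Snord82, both near 0, turned sign. With values under background raised to it, Snora35 went from -0.50 to -0.12 and Snord37 from -0.42 to -0.29, and Snord85 and Snhg9, under background on both arrays, moved too. No paired analysis was possible because each condition has 1 array. The 2 arrays limit the precision, and probesets near background, such as Snord37, Snora35 and Snhg14, carry the least signal.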

Other observations

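Probesets shared between a snoRNA and another gene, which the selection of members leaves out, gave a median closer to 0. Of 16 distinct box C/D probesets of this kind above background 11 were lower, with a median of -0.08. Snord57, shared with Nop56, read 11.57 and 11.27, and the probeset of Snord67 and Ckap5 read 7.17 and 6.90. Against these, Snord32a, shared with Rpl13a, read 13.21 and 13.14, Snord34, also shared with Rpl13a, read 10.08 and 10.12, and Snord14e, shared with the heat shock gene Hspa8, read 9.68 and 9.78. Of 7 box H/ACA probesets shared in this way 3 were lower, with a median of 0.02.

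The snoRNA clusters of imprinted loci, known for expression in brain, were present only outside the named members. The 16 probesets of the Snord116 repeats hold the same pair of values, 6.14 and 6.48. Of 8 genes that RefSeq types as snoRNA under other symbols, all 8 were above background, 5 were lower, and 5 lie within Rian, the non-coding host of the imprinted Dlk1 region. Among these, AF357425 read 10.28 and 10.11, AF357355 read 9.52 and 9.49, and AF357426 read 7.96 and 7.58, beside 8.39 and 8.46 for Rian itself. DQ267102, in the same host, read 7.29 and 7.31, so that RNAs of 1 host again differed in sign.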
